A study of Mus musculus with 6 samples.

Results

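The enzymes of heme synthesis, with the carrier that brings glycine into mitochondria for their first step, were examined in mouse bone as 8 genes chosen by symbol: Alas2, Slc25a38, Alad, Uros, Urod, Cpox, Ppox and Fech. All 8 were found among the 54532 genes of the deposited table, and all 8 were among the 13619 genes with a mean of at least 1 FPKM (fragments scaled for exon length and sequencing depth, as given by the authors) that were tested. The RNA came from bone of MIR29cb2-/- mice (3 libraries, called MIR29cb2-KO here) and of WT mice (3 libraries). Both groups were labelled female, C57BL/6J and aged 16 weeks, with no other allele or treatment in either. The knockout lacks the gene cluster of miR-29b-2 and miR-29c, and the labels name no promoter or cell type that would limit the loss. They do not say which bone was used, whether marrow was kept, or whether each library was 1 animal, and the p-values below reflect only how these libraries vary, which could be partly technical.

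Heme is made in a chain that begins and ends in the mitochondrion and passes through the cytosol in between. The first enzyme, 5-aminolevulinate synthase, joins glycine to succinyl-CoA and sets the pace. It has a form used by red cell precursors (Alas2) and a form used by other cells (Alas1). Red cell precursors of the marrow make most of the body's heme, for hemoglobin, and the factor GATA1 drives much of the pathway there. Bone marrow also holds other heme users, such as neutrophil precursors that fill their granules with the heme enzyme myeloperoxidase.

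The microRNAs lost in the knockout share their seed with miR-29a, which is encoded at another locus together with a further copy of miR-29b. The mature sequences are shown because the seed defines the site searched for in the heme synthesis genes. They are from RefSeq (GRCm38.p6), 5′ to 3′, with the seed, bases 2 to 8, in capitals.
mmu-miR-29b-3p: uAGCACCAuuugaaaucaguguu
mmu-miR-29c-3p: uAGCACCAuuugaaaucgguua
mmu-miR-29a-3p: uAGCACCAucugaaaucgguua
A match to this seed (TGGTGCT) was found in an annotated 3′ UTR of 0 of the 8 genes, in any of their protein-coding transcripts with a stop codon (GENCODE M21). It was also absent from the 3′ UTRs of Alas1. The longest 3′ UTRs searched were those of Fech, at 5243 bases, and Cpox, at 1629 bases, while those of Ppox and Alad had 65 and 80 bases. Of 11667 tested genes with an annotated 3′ UTR, 16.3% held a match.

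The reads behind the values were numerous. Between 16727111 and 20118034 reads per library could be recovered from the FPKM steps, and the 7 genes other than Fech had 2190 (Uros) to 34102 (Alas2) reads in a library. Counting error, which excludes all other sources of spread, was therefore at most 2.14% of a value. For Fech the annotated exon length of 13838 bases gave no whole reads. The shortest of 6 lengths that did in all 6 libraries, with a tolerance of 0.01 reads, was 2901 bases. It gave 10429 to 15298 reads, and the other 5 lengths give more, so the read number of Fech is not fixed. The libraries MIR29cb2-KO replicate 1 and WT replicate 2 stood apart, with FPKM totals of 487102 and 489576, against 355787 to 404994 in the other 4. The bone label was met by Bglap, osteocalcin, at 237 ± 154 FPKM in MIR29cb2-KO bone and 682 ± 296 FPKM in WT bone, and by Col1a1, type I collagen, at 222 ± 105 FPKM in MIR29cb2-KO bone and 469 ± 87.2 FPKM in WT bone (SD, n = 3 each). The host transcript of the deleted microRNAs, A330023F24Rik, was at 2.51, 3.25 and 4.08 FPKM in MIR29cb2-KO bone and at 0.197, 0.153 and 0.136 FPKM in WT bone, with no overlap. Mir29b-2 and Mir29c were listed at 0 in all 6 libraries. Such short RNAs are outside this library type, so the labels were not checked by loss of a transcript.

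None of the 8 chosen heme synthesis genes passed the test between MIR29cb2-KO and WT bone. By limma on log2(FPKM + 1), 0 of 8 had an adjusted p under 0.05, higher or lower, and 0 had an unadjusted p under 0.05. Over all 13619 genes the share that passed was 5.16%, made up of 1.34% that rose and 3.82% that fell, and 20.6% had an unadjusted p under 0.05. With 8 genes, a share of 5.16% is less than 1 gene, so the count of 0 does not set them apart. By voom on recovered reads, which covered 7 of the 8 genes (Fech was not covered), 0 passed and 0 had an unadjusted p under 0.05. Their median log2 change was 0.015, against 0.060 over all genes tested, and the median size of the change, sign left out, was 0.083, against 0.19 over all genes. Of the 8 changes, 5 were above 0 and 3 below. In 0 of 8 genes did the groups lie apart without overlap, against 28.4% of all genes tested.

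**Figure D1:**
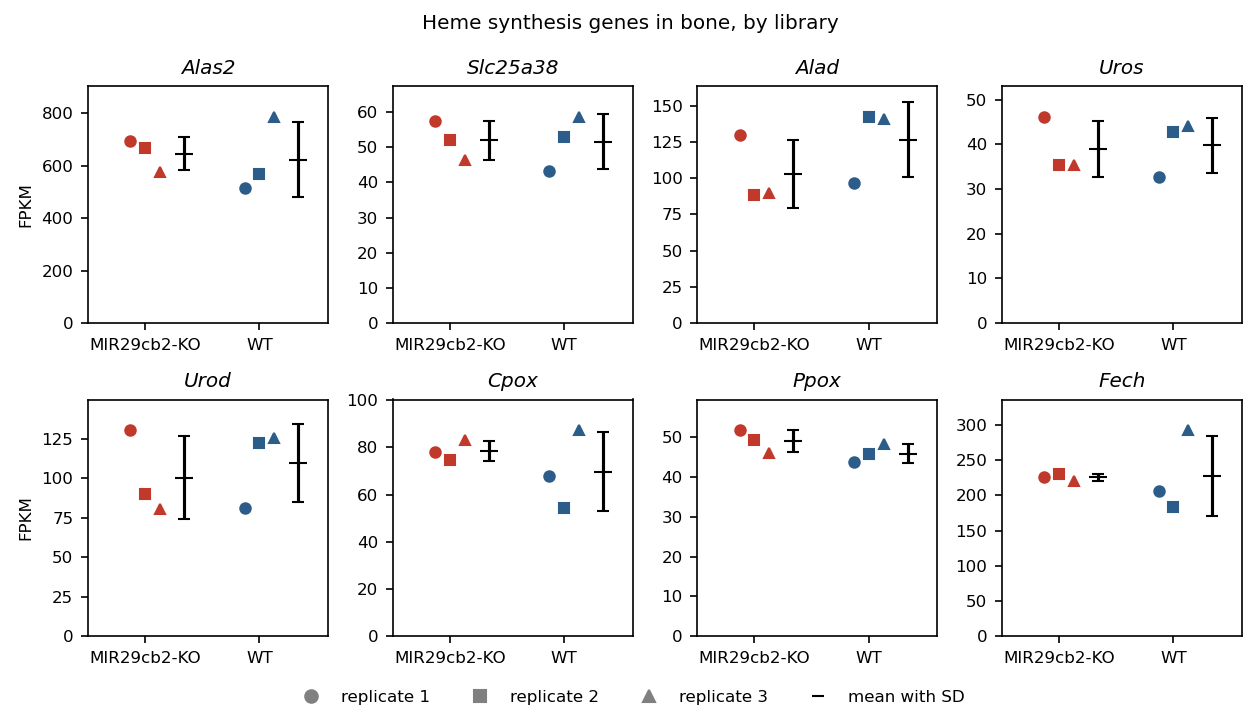
FPKM (vertical axes, from 0) of the 8 heme synthesis genes in the 3 MIR29cb2-KO libraries (red, left) and the 3 WT libraries (blue, right), with marker shapes for replicates and bars for the mean ± SD. The groups overlap in every panel, and the knockout values of Fech, 220 to 230 FPKM, lie inside the WT range of 184 to 292.

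Alas2 (ENSMUSG00000025270), the erythroid form of the rate-setting enzyme, is encoded on the X chromosome (150547375 to 150570638, plus strand, mm10) and was the most abundant of the 8 per length. It stood at 696, 668 and 575 FPKM in MIR29cb2-KO bone and at 516, 567 and 786 FPKM in WT bone. The highest and the lowest library were both WT, so the knockout values lay wholly within the WT range. The mean was 646 ± 63.3 FPKM in MIR29cb2-KO bone and 623 ± 143 FPKM in WT bone (SD, n = 3 each), a log2 change of 0.07 with a 95% interval of -0.47 to 0.61 (limma adjusted p = 0.903). Its exons share 12.9% of their bases with Apex2 on the opposite strand, a gene with a mean of 2.20 FPKM. The use of strand is not given in the sources used here, so reads of that stretch cannot be assigned.

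Slc25a38 (ENSMUSG00000032519), the mitochondrial glycine carrier whose loss causes sideroblastic anemia in humans, lies on chromosome 9 (120110374 to 120124504, plus strand). It had 57.5, 51.9 and 46.4 FPKM in MIR29cb2-KO bone, against 43.1, 52.8 and 58.6 FPKM in WT bone. Both groups covered nearly the same range. The log2 change was 0.02 (95% interval -0.36 to 0.39, limma adjusted p = 0.968).

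The 3 enzymes Alad, Uros and Urod act in the cytosol, and their coefficients of variation were 15.5% to 26.3% in either group. Alad (ENSMUSG00000028393), which condenses aminolevulinate to porphobilinogen and is the enzyme inhibited in lead poisoning, lies on chromosome 4 (62509169 to 62519918, minus strand). It had 130, 88.6 and 90.0 FPKM in MIR29cb2-KO bone, against 96.6, 142 and 141 FPKM in WT bone. MIR29cb2-KO replicate 1 lay nearer to the higher WT libraries, and WT replicate 1 nearer to the lower knockout ones. Its log2 change of -0.30 was the largest in size among the 8 and did not pass (95% interval -0.84 to 0.24, limma adjusted p = 0.531, two-sided exact permutation p = 0.2 with n = 3 per group, where 0.1 is the smallest possible). With array weights, which give less weight to libraries that deviate, Alad passed at -0.55 (limma adjusted p = 0.0276), as the only one of the 8. In that fit 24.6% of all genes passed.

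Uros (ENSMUSG00000030979), which closes the porphyrin ring as uroporphyrinogen III, lies on chromosome 7 (133686243 to 133710072, minus strand). It was the least abundant of the 8, at 46.1, 35.4 and 35.4 FPKM in MIR29cb2-KO bone and 32.7, 42.7 and 44.0 FPKM in WT bone. Each group thus had 1 library on the other side of the rest, the knockout a high one and the WT a low one. The log2 change was -0.03 (95% interval -0.43 to 0.38, limma adjusted p = 0.951).

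Urod (ENSMUSG00000028684), which decarboxylates the ring and is deficient in porphyria cutanea tarda, lies on chromosome 4 (116989965 to 116994413, minus strand). Its values were 130, 90.3 and 80.6 FPKM in MIR29cb2-KO bone and 81.4, 122 and 126 FPKM in WT bone. As for Uros, the high knockout library and the low WT library were replicate 1, and MIR29cb2-KO replicate 3 was the lowest of the 6. Its log2 change was -0.13 (limma adjusted p = 0.822), and its standard error of 0.25 was the largest of the 8.

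For the late mitochondrial enzymes Cpox, Ppox and Fech the coefficient of variation was 2.19% to 5.67% in MIR29cb2-KO bone, and 23.7%, 4.97% and 25.0% in WT bone. Cpox (ENSMUSG00000022742), which makes protoporphyrinogen, lies on chromosome 16 (58670292 to 58717636, plus strand). It had 77.9, 74.8 and 83.2 FPKM in MIR29cb2-KO bone and 67.9, 54.3 and 87.2 FPKM in WT bone. WT replicates 2 and 3 were the lowest and the highest of the 6. The log2 change was 0.20 (95% interval -0.25 to 0.64, limma adjusted p = 0.630). Gpr15 on the opposite strand shares 3.06% of its exon bases.

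Ppox (ENSMUSG00000062729), which oxidizes protoporphyrinogen to protoporphyrin, lies on chromosome 1 (171275990 to 171281186, minus strand) and varied least. It had 51.6, 49.2 and 46.0 FPKM in MIR29cb2-KO bone and 43.6, 45.6 and 48.1 FPKM in WT bone. Its highest library was 1.18 times its lowest, against 1.36 to 1.62 times for the other 7. The log2 change was 0.09 (95% interval -0.18 to 0.37, limma adjusted p = 0.717). Of its exon bases 17.5% are shared with B4galt3 on the opposite strand, at a mean of 5.13 FPKM, so those reads cannot be assigned.

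Fech (ENSMUSG00000024588), which inserts iron into protoporphyrin to complete heme, lies on chromosome 18 (64452914 to 64490251, minus strand). It had 227, 230 and 220 FPKM in MIR29cb2-KO bone and 207, 184 and 292 FPKM in WT bone. All knockout libraries lay within the WT range. The log2 change was 0.01 (95% interval -0.47 to 0.49, limma adjusted p = 0.980).

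**Figure D2:**
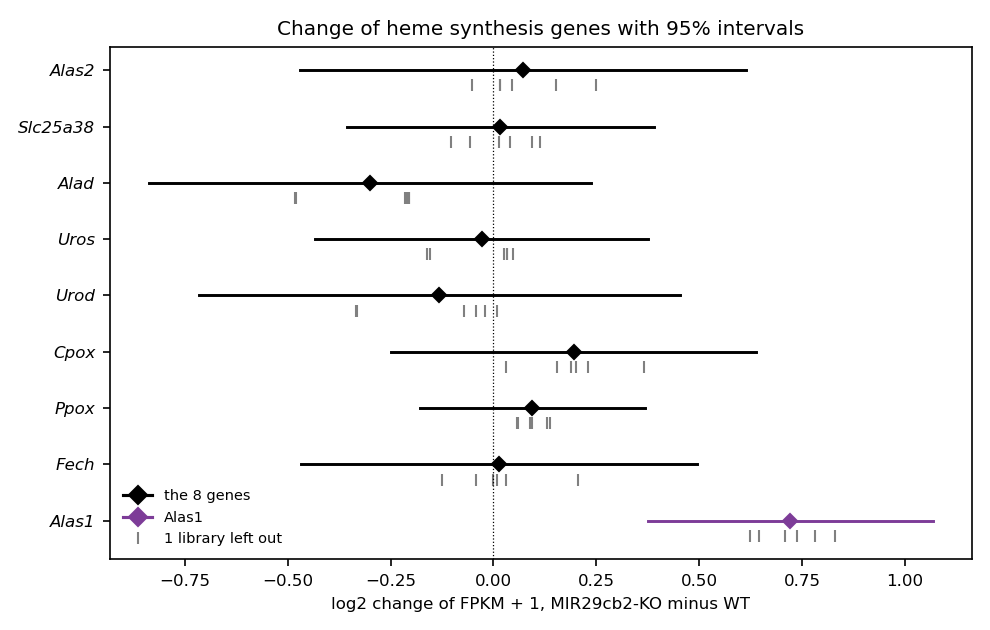
log2 change of FPKM + 1 (horizontal axis, MIR29cb2-KO minus WT) with 95% intervals from limma for the 8 heme synthesis genes (black) and for Alas1 (purple). Grey ticks give the change with 1 library left out. The intervals of the 8 genes all include 0, while that of Alas1 runs from 0.37 to 1.07.

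As fold changes on the FPKM + 1 scale, the 95% interval was narrowest for Ppox, from 0.883 to 1.29, and reached down to 0.560 for Alad and up to 1.56 for Cpox. Changes of the sizes inside those intervals are compatible with these libraries. Without MIR29cb2-KO replicate 1 and WT replicate 2, the libraries that stood apart, the changes of the 8 genes ran from -0.38 for Alad to 0.055 for Ppox and 0 passed. The sign of the change was not stable either: Alas2, Fech, Slc25a38, Cpox, Urod and Uros each turned under at least 1 other setting or without 1 library, while Alad stayed below 0 and Ppox above 0 in all settings run.

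The order of the levels per length was Alas2, Fech, Alad, Urod, Cpox, Slc25a38, Ppox and Uros over the 6 libraries. Alas2 was 2.80 times Fech, and Fech 1.97 times Alad, in both cases with no overlap of the ranges. The Fech level rests on the length the authors used. Alad and Urod did not differ beyond their spread, since Alad was higher in only 4 of 6 libraries. Further down, Urod was above Cpox in 5 of 6 libraries, Cpox above Slc25a38 in 6, Slc25a38 above Ppox in 5 and Ppox above Uros in 6, with overlapping ranges in each pair. Alas1, which is not among the 8, would stand below Uros.

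The libraries of both genotypes moved up or down for most of the genes at once. In MIR29cb2-KO replicate 1 and in WT replicate 3 all 8 genes lay above their mean over the 6 libraries, and in WT replicate 1 all 8 lay below it. MIR29cb2-KO replicate 3 had 1 gene above its mean, Cpox. WT replicate 2 held genes on both sides. Fech and Cpox lay at -0.28 and -0.43 from their means on the log2(FPKM + 1) scale. Alad and Urod lay at 0.34 and 0.25 there. The red cell membrane genes Slc4a1, the anion exchanger band 3, and Epb42, protein 4.2, were lowest in that library too, at -0.59 and -0.57. Other red cell genes differed. The membrane gene Rhag was lowest in WT replicate 1, at -0.26. The globins Hba-a1 and Hbb-bs were highest in WT replicate 2, at 40069 and 13492 FPKM. Annotated exon lengths were 13838 bases for Fech, 6661 for Cpox, 4891 for Slc4a1 and 5417 for Epb42. Those of Alad and Urod were 1871 and 2591 bases. Alas2, with 2403 bases, lay at -0.15 in WT replicate 2, and Rhag, with 2339 bases, at -0.20. The annotated Fech length gave no whole reads, as said above. The part of exon length in this split was not tested.

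**Figure D3:**
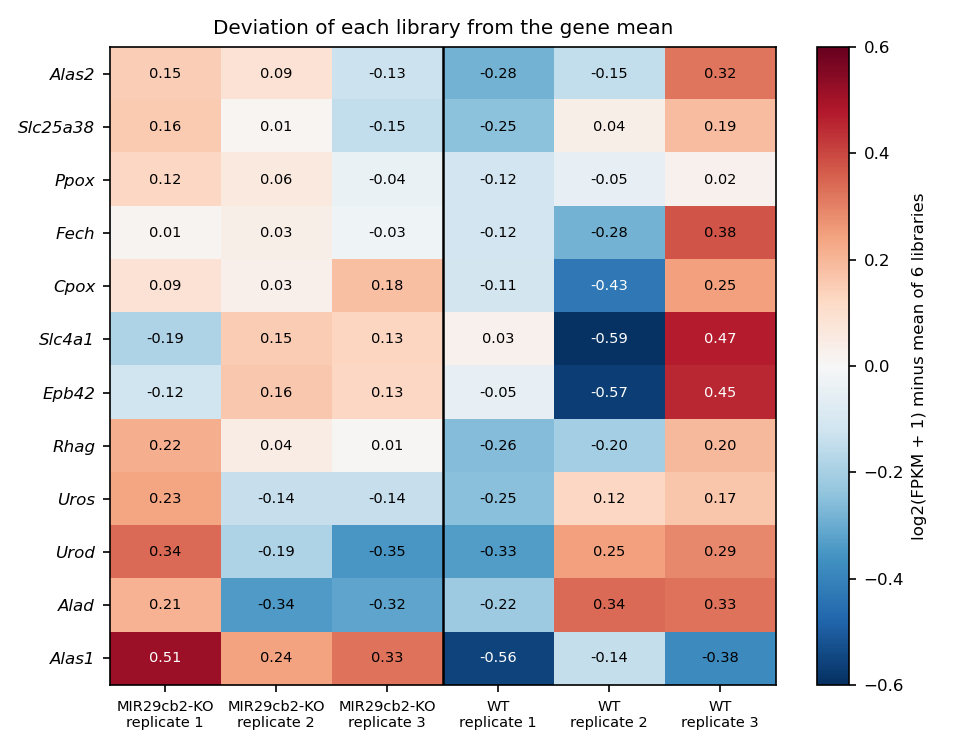
log2(FPKM + 1) of each library minus the mean of the gene over the 6 libraries (colour and printed value), for heme synthesis genes and 3 red cell membrane genes, with the MIR29cb2-KO libraries left of the line and the WT libraries right of it. WT replicate 1 is below the mean for all 8 heme synthesis genes, and only Alas1 is above its mean in each knockout library and below it in each WT library.

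Red cell precursor genes were abundant in all libraries, and their mean log2 level, though not their sum, moved with the same libraries. Their level is given because bulk RNA cannot tell fewer cells of a type from less RNA per cell. Of 25 listed genes 23 were tested and 0 passed, with a median log2 change of 0.064. The summed level of the list ran from 33156 to 57002 FPKM in MIR29cb2-KO bone and from 32546 to 65541 FPKM in WT bone, most of it globin. The mean log2 level was taken over 21 genes that are in no other list. It was highest in WT replicate 3 and MIR29cb2-KO replicate 1, at 0.17 and 0.13 above the mean of the libraries. In WT replicate 1 it was lowest, at -0.17. WT replicate 2, which had the highest sum, lay at -0.048.

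Set against those 21 genes within each library, the 8 genes still overlapped between genotypes. Alas2 stood at 1.26 ± 0.092 log2 units above the red cell mean in MIR29cb2-KO bone and at 1.22 ± 0.15 in WT bone (SD, n = 3 each). Slc25a38 stood at -2.35 ± 0.068 in MIR29cb2-KO bone and -2.34 ± 0.084 in WT bone. The widest gap was again that of Alad, at -1.40 ± 0.21 in MIR29cb2-KO bone and -1.07 ± 0.22 in WT bone. These differences are descriptions with no test.

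The genes most like Alas2 over the libraries were sought across the table. Likeness was measured as the root mean square difference of log2 deviations over the 6 libraries, among 5397 other genes with a mean of at least 10 FPKM, where the median difference was 0.27. The 10 nearest named genes were Atg4a (0.052), Tent5c, Ube2o, Trim10, Bsdc1, Rfc4, Hbq1b, Gch1, Mpp1 and Fzr1 (0.085), with 1 predicted gene or pseudogene passed over. Of the other heme synthesis genes Slc25a38 ranked 30, Fech 57, Ppox 202, Uros 299, Cpox 760, Urod 1769 and Alad 3025 in this order. Alas1 ranked 4573. Genes of the red cell precursor list lay at both ends. Trim10, named above, ranked 5, while Slc4a1 ranked 3254 and the globins Hbb-bs and Hba-a1 ranked 4657 and 4731. The ranks of the other genes in that list are not given. A gene with the same level in all 6 libraries would differ from Alas2 by 0.205.

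The promoters were read for the GATA motif, which GATA1 binds. In the 250 bases before the annotated start, taken from RefSeq (GRCm38.p6), AGATAA or TGATAA was searched on both strands, and 7 of the 8 genes had 9 windows that were read. A match stood in 3 of 9 windows, in Alas2, Cpox and the inner of 2 Uros starts, against 16.6% of all 32851 promoter windows. The windows of Alad, Urod, Ppox, Slc25a38 and the outer Uros start held none. Alas2 and Cpox are shown from base -250 to base -51 before the start, in the direction of the gene, with the motif in capitals as read on the other strand. The first base of the match is at -86 in both.
Alas2, chrX:150547167-150547366, plus strand: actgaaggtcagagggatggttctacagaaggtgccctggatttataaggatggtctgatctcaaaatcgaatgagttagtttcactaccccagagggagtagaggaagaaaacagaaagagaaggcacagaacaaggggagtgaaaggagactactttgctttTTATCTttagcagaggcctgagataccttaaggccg
Cpox, chr16:58669958-58670157, plus strand: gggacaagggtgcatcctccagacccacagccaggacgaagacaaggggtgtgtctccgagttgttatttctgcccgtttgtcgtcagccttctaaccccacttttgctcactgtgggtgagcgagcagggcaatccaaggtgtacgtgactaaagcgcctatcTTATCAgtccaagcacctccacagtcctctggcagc
A match is a description of the letters and not a shown site. Both genes had log2 changes that did not pass, as given above.

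The other form of the first enzyme, Alas1, was in a list of 16 further enzymes and mitochondrial partners, of which 15 were tested. In that list 1 gene rose and 0 fell, and the median log2 change was -0.007.

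Alas1 (ENSMUSG00000032786), the form used outside the red cell lineage (chromosome 9, 106233455 to 106248654, minus strand), was the gene that rose. It had 33.5, 27.6 and 29.4 FPKM in MIR29cb2-KO bone, against 15.4, 20.9 and 17.5 FPKM in WT bone. Each knockout library lay above each WT library. The log2 change was 0.72 with a standard error of 0.15 (limma adjusted p = 0.0411). The call was lost in 7 of 18 other settings, among them without any 1 library other than WT replicate 2, and the change stayed between 0.62 and 0.83. Without both libraries that stood apart it was 0.76 (limma adjusted p = 0.0497). The antisense gene 4930500F10Rik, at a mean of 0.118 FPKM, shares 7.53% of its exon bases.

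Within each library, the FPKM of Alas1 equalled 4.81%, 4.13% and 5.11% of that of Alas2 in MIR29cb2-KO bone and 2.99%, 3.69% and 2.23% in WT bone. The ratios did not overlap between the groups. On the log2 scale the gap between the forms differed by 0.65 between genotypes (two-sided exact permutation p = 0.1, n = 3 per group, the smallest p possible). This comparison was chosen after the values were seen. Of 15 neutrophil markers 3 rose and 0 fell. Their log2 changes ran from -0.26 to 1.63, with a median of 0.52. Their summed level was 42332 to 54618 FPKM in MIR29cb2-KO bone and 22986 to 43162 FPKM in WT bone, ranges that overlap. The part of the neutrophil markers in the Alas1 result was not tested.

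**Figure D4:**
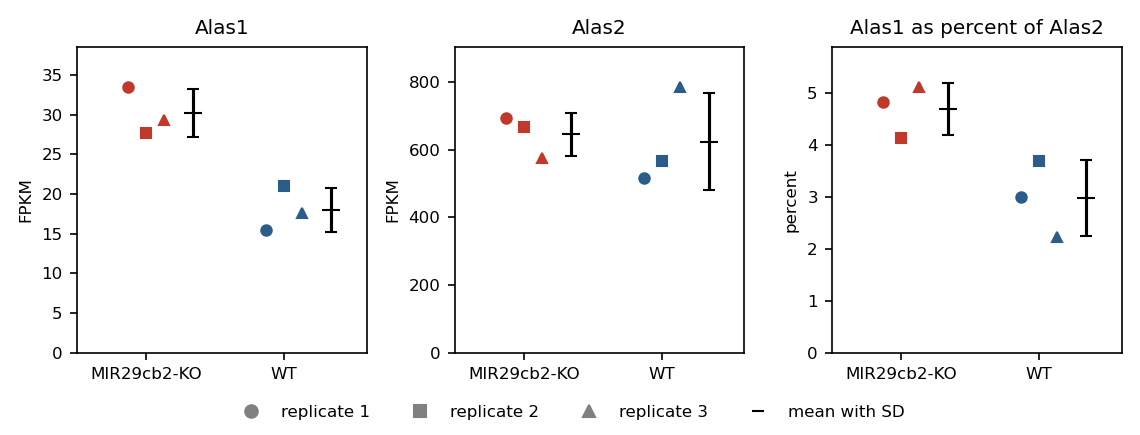
FPKM of Alas1 (left) and Alas2 (middle) and Alas1 as a percentage of Alas2 (right) in the MIR29cb2-KO libraries (red) and WT libraries (blue), with marker shapes for replicates and bars for the mean ± SD. The knockout percentages of 4.13 to 5.11 lie above the WT percentages of 2.23 to 3.69, while Alas2 overlaps.

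The other partners of the pathway did not pass. Tspo, a protein of the outer mitochondrial membrane that binds porphyrins, had 444, 308 and 285 FPKM in MIR29cb2-KO bone and 158, 232 and 214 FPKM in WT bone. Its groups did not overlap and its log2 change of 0.77 did not pass (limma adjusted p = 0.124). It passed in 3 of 18 other settings, with quantile normalization (limma adjusted p = 0.0180), with the trend with exon length removed (0.0331) and with array weights (0.0207). Pgrmc1, a heme-binding membrane protein, had a log2 change of -0.29, and Slc25a28, the mitochondrial iron importer mitoferrin 2, one of 0.23. Of these, Pgrmc1 passed with array weights (limma adjusted p = 0.0159), a fit in which 24.6% of all genes passed.

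Of 13 genes of iron uptake, storage and export 1 rose and 0 fell, with a median log2 change of 0.052. Fbxl5, the iron-sensing part of a ubiquitin ligase that degrades the iron regulatory proteins, rose. It had 14.3, 16.2 and 14.6 FPKM in MIR29cb2-KO bone and 9.31, 10.05 and 9.34 FPKM in WT bone, with no overlap (log2 change 0.60, limma adjusted p = 0.0293). The call was lost in 9 of 18 other settings. Ireb2, one of the proteins it degrades, had a log2 change of 0.19, the endosomal iron reductase Steap3 one of -0.32 and the iron exporter Slc40a1 one of -0.26, none past the threshold. With array weights Steap3 and Slc40a1 passed (limma adjusted p = 0.00915 and 0.0167), as did 24.6% of all genes.

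Genes that use, break down or sense heme gave few calls. Of 7 tested genes of heme breakdown and transport 0 passed by limma at either the adjusted or the unadjusted threshold, and their median log2 change was -0.067. The examples with the smallest p were Blvrb, a biliverdin reductase (-0.14), Slc48a1, a heme carrier of the lysosome (-0.087), and Flvcr1, a heme exporter (-0.067). Of 12 iron-sulfur cluster genes 0 passed and 0 had an unadjusted p under 0.05 by limma, with log2 changes of 0.26 for Nfu1 and -0.21 for Isca1. Of 13 erythroid and heme-sensing regulators 0 passed by limma and 0 had an unadjusted p under 0.05. In that list Gata2, a factor of early progenitors, had a log2 change of -0.22, Gfi1b one of -0.26 and Lmo2 one of 0.25. With array weights 2 of the 13 passed, Gata2 (limma adjusted p = 0.0415) and Gfi1b (0.0184), against 24.6% of all genes in that fit.

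Heme-binding proteins of other cells were measured as well. Of 14 tested 1 rose and 0 fell, with a median log2 change of 0.10. Mpo, the myeloperoxidase of neutrophil granules, rose to 473, 377 and 482 FPKM in MIR29cb2-KO bone, against 192, 213 and 235 FPKM in WT bone (log2 change 1.05, limma adjusted p = 0.0290). That call too was lost in 9 of 18 other settings. Mpo is also one of the 3 neutrophil markers that rose. Mb, the myoglobin of muscle, had a log2 change of -1.43, Ptgs1, a cyclooxygenase, one of 0.40 and Cyp4b1, a cytochrome P450, one of -0.49, none past the threshold. All 3 passed with array weights, as did 24.6% of all genes. Mb also passed by voom (limma adjusted p = 0.0467) and Cyp4b1 with the trend with exon length removed (0.0484). The count for the list ran from 0 to 6 over the settings.

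**Figure D5:**
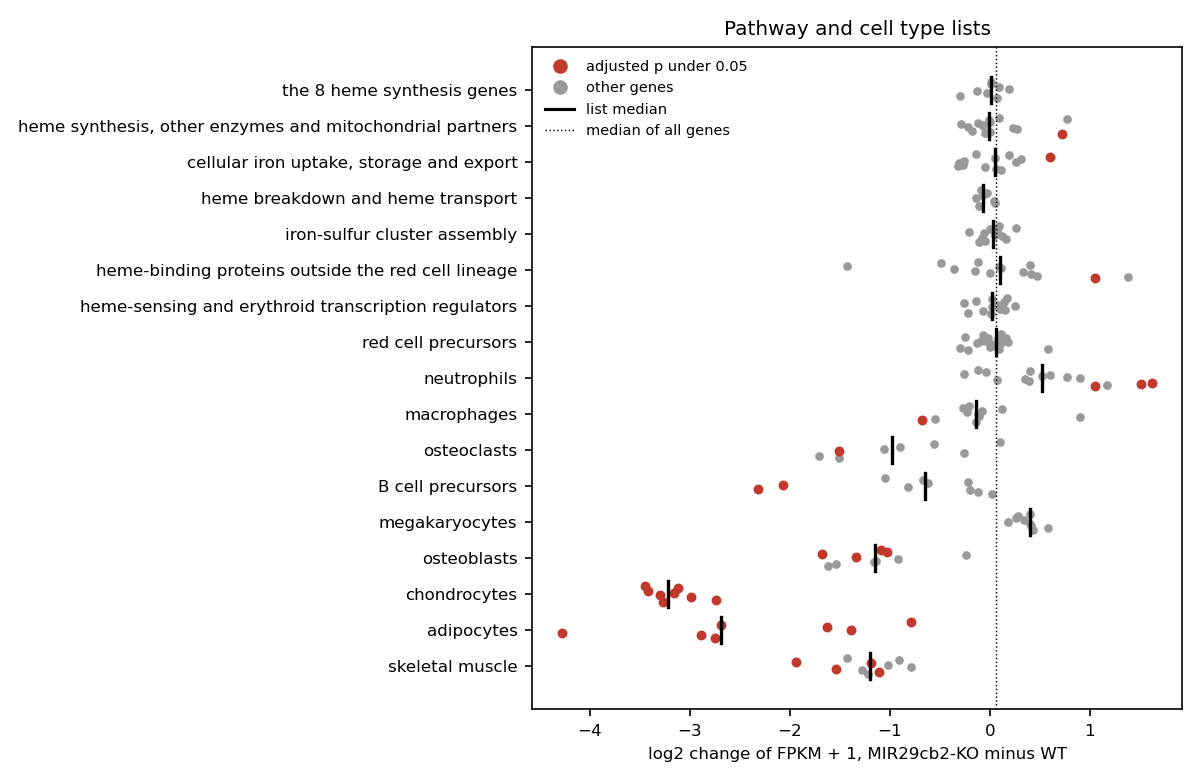
log2 change of FPKM + 1 (horizontal axis, MIR29cb2-KO minus WT) of each tested gene in the 8 heme synthesis genes, 6 pathway lists and 10 cell type lists, with genes past an adjusted p of 0.05 in red and list medians as black bars. The heme synthesis genes lie between -0.30 and 0.20 around a median of 0.015, while all 8 chondrocyte genes and all 7 adipocyte genes are red and below 0.

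Marker RNA of some other cell types, skeletal muscle among them, did differ between genotypes, which bears on a bulk level. All 8 tested chondrocyte and 7 adipocyte markers fell, with medians of -3.21 and -2.69, and 4 of 10 osteoblast and 4 of 10 skeletal muscle markers fell, with medians of -1.15 and -1.20. Summed chondrocyte markers were 7.57 to 34.1 FPKM in MIR29cb2-KO bone, against 234 to 349 FPKM in WT bone. Of 8 osteoclast markers 1 fell and 6 had an unadjusted p under 0.05, with a median of -0.98. Of 10 B cell precursor markers 2 fell, with a median of -0.64, and of 11 macrophage markers 1 fell, with a median of -0.13. Of 9 megakaryocyte markers 0 passed by limma or had an unadjusted p under 0.05, while the log2 change was above 0 for all 9, with a median of 0.40. The part of these shifts in the levels of the heme synthesis genes was not tested.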

How the data were processed

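RNA from bone was sequenced in 6 libraries, 3 MIR29cb2-KO and 3 WT, grouped by title. The authors deposited 1 table of FPKM per gene. Bowtie 0.12.2 and the mm10 build are named, per the submitters' processing notes. Which tool counted reads, with which annotation, strand setting and scaling, is not given in the sources used here. Gene symbols, coordinates and exon lengths came from GENCODE M21 (54495 identifiers matched, 37 did not). FPKM times exon length moved in steps of 1 read, and 96.95% of 29600 genes above 0 gave whole reads within 0.01. On chromosomes 17, 18 and 19, 32.4% did not, so read numbers there are incomplete.

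Genes with a mean of at least 1 FPKM were tested as log2(FPKM + 1), which understates changes of low genes. The test was limma 3.58.1 in R 4.3.3, with a variance trend, Benjamini-Hochberg adjustment over 13619 genes and a threshold of 0.05. The limma and voom steps were tested on simulated data. Exact permutation tests were two-sided. Values given for red cell genes within a library use log2(FPKM + 1). Figures used matplotlib 3.10.9. The members, lists and settings, including leaving out the libraries that stood apart, were chosen with earlier results of these data known. Genes named from the 6 pathway lists are those past the threshold and the next 3 by p. The red cell genes Slc4a1, Epb42, Rhag, Hba-a1 and Hbb-bs are named outside that rule. Some results are not reported here. The 10 cell type lists are given as counts and medians, and 3 of them also as sums.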

Additional observations from a re-analysis of the deposited data

How the results depend on the processing

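The count of genes past the threshold moved from 703 to 143 with no filter on low values, 365 with a mean of at least 5 FPKM, 1200 with the trend with exon length removed, 3354 with array weights, 127 with the replicate block and 239 without WT replicate 2 and MIR29cb2-KO replicate 1. It ran from 62 to 418 with 1 library left out. Of the 8 genes, 0 passed in 17 of 18 alternatives and 1, Alad at -0.55, with array weights. In 143 alternative values of the 8 genes the sign turned in 25. Values that turned were -0.14 for Alas2, -0.094 for Cpox, -0.24 for Fech and -0.11 for Slc25a38 with array weights. With median-of-ratios scaling Fech was at -0.018 and Slc25a38 at -0.014, with quantile normalization at -0.028 and -0.045, and with the length trend removed at -0.0085 and -0.013. Slc25a38 was at -0.022 by voom. Without WT replicate 2 and MIR29cb2-KO replicate 1, Alas2 was at -0.040, Fech at -0.13 and Slc25a38 at -0.035. With 1 library left out, the values ran from -0.052 to 0.25 for Alas2, -0.12 to 0.21 for Fech, -0.10 to 0.11 for Slc25a38, -0.16 to 0.048 for Uros and -0.33 to 0.0098 for Urod. Flvcr1, not one of the 8, also turned, to 0.079 with array weights, 0.11 without WT replicate 2 and MIR29cb2-KO replicate 1, and within -0.14 to 0.069 with 1 library left out. The cause was not tested. The differences between genotypes in log2 level beside red cell precursor genes moved by less than 1 SD under all 3 alternatives.

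The replicate numbers are shared between the groups. Same-numbered libraries deviated from their group means with correlations across genes of -0.49, -0.27 and 0.16, which show no common pairing by number. Deviations from a mean of 3 libraries are not independent, so these correlations cannot exclude a pairing. With the replicate block, 0 of the 8 genes passed and Alas1 (adjusted p = 0.167), Fbxl5 (0.131) and Mpo (0.155) did not pass in limma. Not every library correlated best with its own number.

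Counting error was at most 2.14% for the 8 genes, below the spread between the libraries of a group in each.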
